A study of Mus musculus with 10 samples.

Results

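The alpha class glutathione S-transferases were measured as 5 genes, Gsta1, Gsta2, Gm10639, Gsta3 and Gsta4, among 21222 genes in a count table of mouse left ventricle. They were found by symbol, and each symbol matched 1 entry of the table. Gsta4, Gsta1, Gm10639 and Gsta2 lie together on chromosome 9, whereas Gsta3 lies on chromosome 1 in both the table and the annotation, so the 5 genes do not form 1 cluster. RNA came from 10 male C57BL/6J mice aged 6 months: 4 non-transgenic mice (NTG), 3 CaNrf2-Low mice (TGL) and 3 CaNrf2-High mice (TGH). CaNrf2 is a constitutively active form of the transcription factor Nrf2, and low and high are the levels named for the 2 transgenic groups. The labels give neither the promoter that drives it nor the number of founders behind each group, so a transgene's insertion site cannot be told apart from its level. TG below stands for TGL and TGH together, 6 mice.

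Glutathione S-transferases join the tripeptide glutathione to electrophilic compounds, which makes them soluble and ready for export. Alpha class enzymes also reduce lipid hydroperoxides and take up breakdown products of oxidised lipids, and they are abundant in liver, kidney and gut. Nrf2 is held in check by Keap1 and, when released, binds antioxidant response elements near genes of glutathione metabolism, rodent alpha class genes among them. Gsta1 and Gsta2 encode the closely related subunits long known from rodent liver, Gsta3 the mouse subunit that conjugates the epoxide of aflatoxin, and Gsta4 the subunit with a preference for hydroxynonenal, an aldehyde released from peroxidised membrane lipids. Gm10639 is annotated as a protein-coding gene between Gsta1 and Gsta2 and is known here by its position and sequence.

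Total counts ran from 7076319 to 10896535 per library. The summed level of 7 cardiomyocyte markers was 69000 to 71900 CPM (the count relative to the TMM-adjusted library size) in NTG, 65800 to 68100 in TGL and 56400 to 61400 in TGH, where 6 of the 7 fell and 1 rose against NTG. In bulk tissue fewer cells of a type and less RNA per cell cannot be told apart. Fibroblast markers summed to 868 to 1130 CPM in NTG, 1170 to 1520 in TGL and 1410 to 1450 in TGH, and 2 of 5 rose in TGL and 4 of 5 in TGH. Macrophage markers summed to 47.6 to 59.0 CPM in NTG, 36.9 to 72.0 in TGL and 82.2 to 84.8 in TGH, where 2 of 4 rose. Endothelial markers summed to 689 to 738, 555 to 736 and 491 to 597 CPM, and 3 of 4 fell in TGH. Adipocyte markers, with 3 of 4 present in the table, summed to 418 to 772 CPM over all libraries, nearly all of it from Fabp4. Fabp4 was not called, and Plin1 and Adipoq, at most 0.138 and 0.207 CPM, were too low to be tested. Over all genes tested, 4.15% were called higher and 2.14% lower in TGL, and 16% higher and 16.4% lower in TGH. The part of these cell types in the results below was not tested. Of 8 hepatocyte markers 6 had an entry, and together they reached at most 3.34 CPM in any library, while the 5 kidney tubule markers reached at most 31.0 CPM, most of it from Kap. Among atrial markers Nppa and Myl4 rose in both lines, but Sln and Myl7 stayed at or under 0.478 CPM in every library. Nfe2l2, which encodes Nrf2, stood at 88.3 to 164 CPM in NTG, 129 to 182 in TGL and 182 to 254 in TGH, and the labels do not say which part of Nfe2l2, or which species' sequence, the transgene holds.

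Gsta1, Gsta2 and Gm10639 are near copies of one another, and their sequences set how far each can be read on its own. The coding sequences of Gsta1 and Gsta2 were 97.5% identical, those of Gsta2 and Gm10639 98.5%, and those of Gsta1 and Gm10639 96.9%. Gsta3 was 73.4% identical to Gsta1, and Gsta4 was 65.5% identical to it. The window of 60 coding bases with the most differences among the near copies is shown (coding bases 608 to 667 of Gsta1, GENCODE M21 on GRCm38), with capitals for bases that differ from Gsta1. Gm3776 is included because it lies between Gsta1 and Gm10639 and holds 75.7% of the 50-base words of Gsta1's transcripts; the table has no entry under its symbol.
Gsta1: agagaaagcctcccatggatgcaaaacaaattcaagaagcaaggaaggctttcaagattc
Gm3776: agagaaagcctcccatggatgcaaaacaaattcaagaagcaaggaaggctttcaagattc
Gm10639: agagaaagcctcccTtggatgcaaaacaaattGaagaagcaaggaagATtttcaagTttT
Gsta2: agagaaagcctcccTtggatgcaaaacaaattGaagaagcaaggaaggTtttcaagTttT
In this window Gm10639 differed from Gsta1 at 6 bases, Gsta2 at 5 and Gm3776 at 0, and over the whole coding sequence Gm3776 differed at 2 of 672. Of the 50-base words of each gene's transcripts, 90.5% of Gsta1's, 49.8% of Gsta2's and 49.4% of Gm10639's occurred in another annotated gene. These shares were 0.273% for Gsta3 and 0.0% for Gsta4. Values of Gsta1, Gsta2 and Gm10639 are therefore uncertain one by one, and their sum is given beside them.

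The promoters are shown as background, and their part in the changes below was not tested. The 250 bases before the RefSeq start site (GRCm38.p6) were searched on both strands for TGANNNNGC, a loosened form of the core of the antioxidant response element. They were also searched for the stricter form TGACNNNGC, each match of which is also a match of the first. RefSeq promoters were at hand for 4 of the 5 genes, the exception being Gsta4. Capitals mark the matches.
Gsta1, chr9:78230419-78230668, plus strand: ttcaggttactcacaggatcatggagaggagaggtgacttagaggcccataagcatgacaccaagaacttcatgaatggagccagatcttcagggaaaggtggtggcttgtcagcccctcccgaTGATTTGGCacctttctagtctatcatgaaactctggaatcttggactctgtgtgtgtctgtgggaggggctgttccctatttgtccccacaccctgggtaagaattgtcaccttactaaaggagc
Gsta2, chr9:78347146-78347395, minus strand: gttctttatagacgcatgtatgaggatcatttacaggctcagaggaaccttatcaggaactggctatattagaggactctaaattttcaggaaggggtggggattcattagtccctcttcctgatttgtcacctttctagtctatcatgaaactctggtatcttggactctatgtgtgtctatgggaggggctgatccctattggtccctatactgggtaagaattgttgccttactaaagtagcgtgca
Gsta3, chr1:21240335-21240584, plus strand: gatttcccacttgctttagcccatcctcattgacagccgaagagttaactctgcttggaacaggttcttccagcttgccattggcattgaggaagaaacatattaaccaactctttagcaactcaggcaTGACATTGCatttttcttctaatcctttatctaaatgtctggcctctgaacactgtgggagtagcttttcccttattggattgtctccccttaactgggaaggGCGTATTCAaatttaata
Gsta1 held 1 match of TGANNNNGC, 126 to 118 bases before its start, and 0 of the stricter form. Gm10639, whose window was 87.2% identical to that of Gsta1 (46.7% for Gsta3), held the same 9 letters 111 to 103 bases before its start. Gsta3 held 2 matches, 1 of them of the stricter form, 121 to 113 bases before its start, and the window of Gsta2 held 0. Sequence beyond these 250 bases was not searched, so a window without a match does not show that a gene lacks the element. Among 32851 RefSeq promoter windows of the same length 35.2% held TGANNNNGC and 10.2% held TGACNNNGC, so a match is common by itself.

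Gsta1 (ENSMUSG00000074183, plus strand of chromosome 9 in GRCm38, 78230656 to 78242684) had NTG values of 5.35, 5.70, 3.71 and 5.49 CPM. It stood at 306, 274 and 217 CPM in the TGL mice and at 948, 789 and 708 CPM in the TGH mice. Every TGL library lay above every NTG library, and every TGH library lay above every TGL library. Gsta1 rose 52.2-fold in TGL and 160-fold in TGH (log2 fold change 5.70 ± 0.17 and 7.32 ± 0.18, SE), and the edgeR quasi-likelihood adjusted p (Benjamini-Hochberg, 14511 genes) was 4.32e-09 and 1.90e-10.

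Gsta2 (ENSMUSG00000057933, chromosome 9, 78331018 to 78355788, minus strand) stood at 2.94, 2.28, 1.91 and 3.43 CPM in NTG. The TGL mice had 121, 125 and 91.6 CPM and the TGH mice 448, 400 and 314 CPM, again without overlap between any of the groups. The edgeR log2 fold change was 5.41 ± 0.20 (SE) in TGL (adjusted p = 1.44e-08) and 7.19 ± 0.20 in TGH (adjusted p = 4.90e-10).

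Gm10639 (ENSMUSG00000074179, chromosome 9, 78289923 to 78305525) had the fewest counts of the family in NTG, 22, 10, 5 and 12, which are 2.94, 1.04, 0.598 and 1.37 CPM. NTG 0 was the high library here, and NTG 2, with 5 counts, held the lowest count of any family gene in any library. The TGL mice had 64.1, 59.1 and 45.1 CPM and the TGH mice 219, 215 and 186 CPM, which left no overlap. Its edgeR log2 fold change was 5.27 ± 0.27 (SE) in TGL (adjusted p = 3.25e-07) and 7.15 ± 0.27 in TGH (adjusted p = 6.18e-09).

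Counted together, Gsta1, Gsta2 and Gm10639 held 52 to 90 counts in an NTG library, 2431 to 3547 in a TGL library and 11177 to 16233 in a TGH library. With the 3 genes added into 1 feature before the fit, edgeR gave 5.56 ± 0.19 (log2 fold change, SE, adjusted p = 1.12e-08) in TGL and 7.26 ± 0.20 (adjusted p = 5.70e-10) in TGH. This sum does not depend on how reads were divided among the 3 genes, each of which also rose alone. How reads shared with genes outside the sum, such as Gm3776, were counted was not tested. Within that sum Gsta1 held 47.6 to 63.2% in NTG, 59.8 to 62.3% in TGL and 56.2 to 58.7% in TGH, and these ranges overlapped between NTG and both lines. Gsta2 held 25.3 to 33.3%, 24.6 to 27.3% and 26 to 28.5% of it.

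Gsta3 (ENSMUSG00000025934, plus strand of chromosome 1, 21240589 to 21265661) lies apart from the others and shares few exact 50-base words with other genes. In NTG it was measured at 10.8, 8.08, 12.2 and 6.41 CPM. The TGL mice had 50.9, 52.8 and 47.7 CPM and the TGH mice 198, 211 and 184 CPM, and no groups overlapped. The spread within TGL (SD 2.58 CPM, n = 3) and TGH (SD 13.5 CPM, n = 3) was small beside these steps. By edgeR it rose 5.40-fold in TGL (log2 fold change 2.43 ± 0.16, SE, adjusted p = 3.14e-06) and 21.1-fold in TGH (4.4 ± 0.16, adjusted p = 5.93e-09).

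Gsta4 (ENSMUSG00000032348, chromosome 9, 78182774 to 78209349), the hydroxynonenal enzyme, had the highest level of the 5 genes in NTG. It stood at 63.9, 58.6, 45.8 and 49.3 CPM in NTG, whereas the TGL mice had 81.1, 81.7 and 52.4 CPM and the TGH mice 150, 145 and 129 CPM. TGL 0 and TGL 1 lay above all NTG libraries, TGL 2 lay among them, and all TGH libraries lay above all others. Gsta4 rose 2.60-fold in TGH (log2 fold change 1.38 ± 0.15, SE, edgeR adjusted p = 4.53e-05). In TGL its log2 fold change was 0.40 ± 0.16 (edgeR adjusted p = 0.159), but edgeR gave 0.58 with an adjusted p of 0.0160 without TGL 2 and 0.51 with 0.0158 without both NTG 2 and TGL 2, and the adjusted p ran from 0.0158 to 0.448 over all alternatives.

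**Figure D1:**
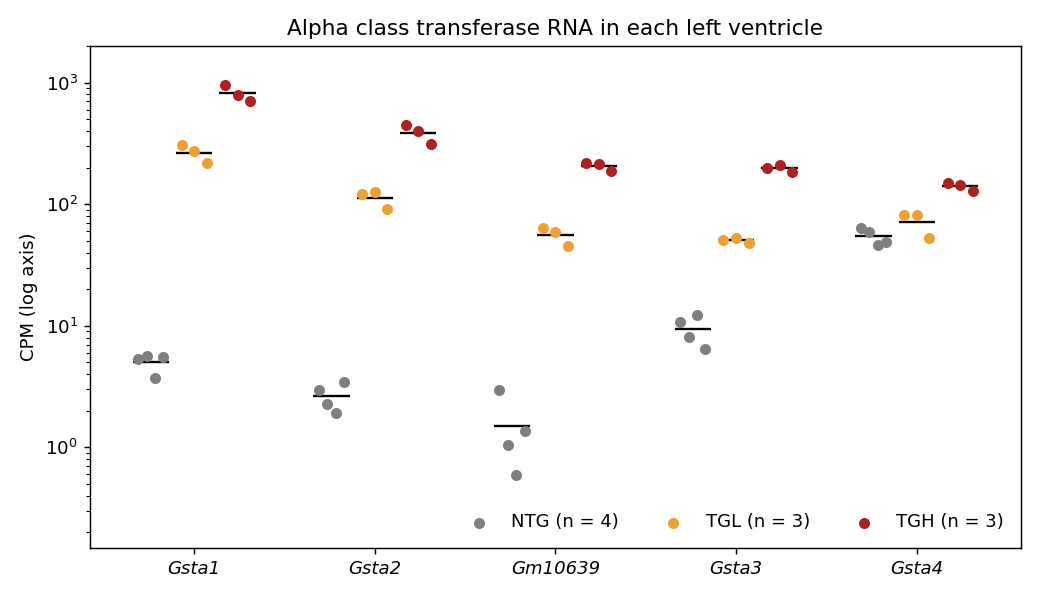
CPM of each alpha class gene on a log axis, 1 point per mouse (NTG, n = 4; TGL and TGH, n = 3 each), with a line at each group's mean. Gsta1, Gsta2, Gm10639 and Gsta3 separate all 3 groups, while for Gsta4 the TGL library at 52.4 CPM lies within the NTG range of 45.8 to 63.9 CPM.

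Against NTG, 4 of the 5 genes rose in TGL and 5 of 5 in TGH, where the same call was made for 4.15% and 16% of all 14511 genes tested as higher. None of the 5 fell, beside 2.14% of genes in TGL and 16.4% in TGH. In TGL every library exceeded every NTG library for 4 of 5 genes (10.8% of all genes tested), and in TGH for 5 of 5 (19.3%). All 5 genes passed the filter on low counts. The median log2 fold change over all genes tested was -0.0052 in TGL and -0.015 in TGH. The 2 comparisons share their NTG libraries.

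Going from TGL to TGH, all 5 genes rose, and each of the 3 TGH libraries exceeded each of the 3 TGL libraries for every one of them (5.53% of all genes were called higher and 4.11% lower, and 14.5% were higher without overlap). Gsta1 rose 3.07-fold (log2 fold change 1.62 ± 0.15, SE, edgeR adjusted p = 0.000114), Gsta2 3.44-fold, Gm10639 3.69-fold and Gsta3 3.91-fold (1.97 ± 0.16, edgeR adjusted p = 6.07e-05). Gsta4 rose 1.97-fold (0.98 ± 0.17, edgeR adjusted p = 0.00351). The first step, from NTG to TGL, thus spanned 1.32-fold for Gsta4 to 52.2-fold for Gsta1, and the second 1.97-fold to 3.91-fold.

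**Figure D2:**
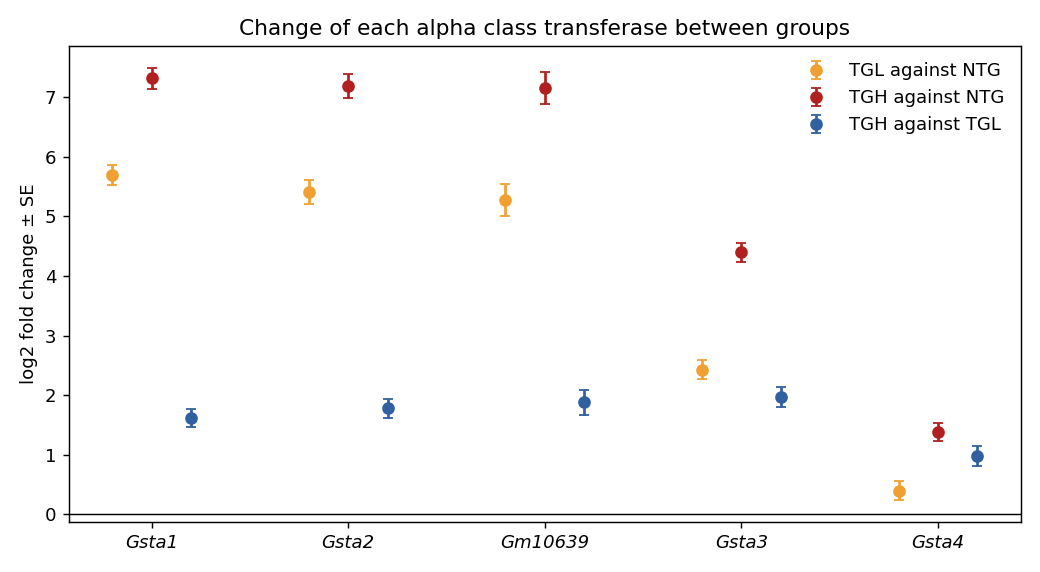
edgeR log2 fold change of each alpha class gene with its SE for TGL against NTG, TGH against NTG and TGH against TGL. The near copies stand at 5.27 to 5.70 in TGL and 7.15 to 7.32 in TGH, Gsta3 at 2.43 and 4.4 and Gsta4 at 0.40 and 1.38, while TGH against TGL spans 0.98 to 1.97.

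The comparison the labels describe joins both lines. With TG as 1 group of 6, edgeR called 5 of 5 genes higher than NTG, beside 9.34% of 14265 genes tested, and 0 lower, beside 8.03%. In 4 of 5 genes every TG library exceeded every NTG library (7.68% of genes tested), the exception being Gsta4. Gsta3 had 3.73 ± 0.56 (log2 fold change, SE, edgeR adjusted p = 0.00240), and the SE was wider than in either line alone, the lines being apart. Gsta4 had 0.97 ± 0.27 (edgeR adjusted p = 0.0291). Its adjusted p passed 0.05 when NTG 0 (0.0569), NTG 1 (0.0694), NTG 2 (0.0719), NTG 3 (0.0714), TGH 0 (0.0583), TGH 1 (0.0598) or TGH 2 (0.0521) was left out, with a range of 0.00067 to 0.0958 over all alternatives. In the authors' deposited table the log2 fold change of TG against NTG was 6.74 for Gsta1, 6.57 for Gsta2, 6.48 for Gm10639, 3.73 for Gsta3 and 0.98 for Gsta4.

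These unequal steps changed which gene dominated the family. In NTG Gsta4 held 71.3 to 77.4% of the counts of the 5 genes, and the 3 near copies together held 9.68 to 15.6%. In TGL Gsta4 held 11.5 to 13.8% and the near copies 77.3 to 78.8%, and in TGH Gsta4 held 7.67 to 8.46% and the near copies 79.5 to 82.3%. Gsta3 held 9.71 to 19.0% in NTG, 8.17 to 10.5% in TGL and 10.1 to 12.1% in TGH, with overlapping ranges. Summed over the 5 genes the level was 64.2 to 86.0 CPM in NTG, 454 to 622 CPM in TGL and 1520 to 1960 CPM in TGH. TGL 2, at 454 CPM, was the lowest TGL library for the sum and for each of the 5 genes.

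**Figure D3:**
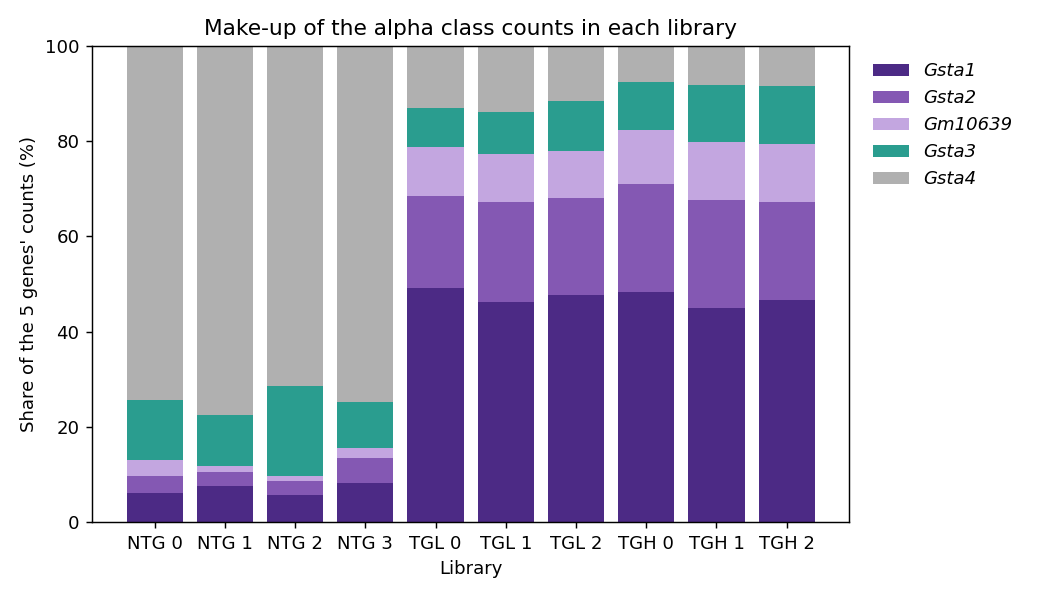
Share of the counts of the 5 alpha class genes held by each gene, 1 bar per library, in percent. Gsta4 holds 71.3 to 77.4% in the NTG bars and 7.67 to 13.8% in the TGL and TGH bars, where Gsta1 holds 44.9 to 49.1%.

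Per kilobase of the longest protein-coding transcript, Gsta4 was the highest of the family in NTG at 55.7 ± 8.52 CPM per kb (SD, n = 4). It was followed by Gsta3 at 6.44 ± 1.8 and Gsta1 at 5.79 ± 1.05, which did not differ beyond their spread, then Gsta2 at 3.04 ± 0.779 and Gm10639 at 1.5 ± 1.03. In TGL the order of level per kb was Gsta1 (303 ± 51.4, n = 3), Gsta2 (129 ± 20.9), Gsta4 (73.4 ± 17.2), Gm10639 (56.5 ± 9.94) and Gsta3 (34.6 ± 1.77). The group means of Gsta4 and Gm10639 were within their spread, but Gsta4 was the higher in each TGL mouse (83.1, 83.6 and 53.6 against 64.6, 59.5 and 45.4). In TGH the order was Gsta1 (932 ± 139, n = 3), Gsta2 (445 ± 78.1), Gm10639 (208 ± 18.2), Gsta4 (145 ± 11.6) and Gsta3 (135 ± 9.26). The means of the last pair were again within their spread, with Gsta4 the higher in each TGH mouse (154, 148 and 132 against 136, 145 and 126). Gsta3 has an annotated retained intron, and per kilobase of all its exons it stood at 2.16 CPM per kb in NTG, under Gsta1 at 5.30, so the order of those genes in NTG depends on the length used. In TGH the same lengths gave 112 CPM per kb for Gsta4 and 45.4 for Gsta3, so the gap between that pair also depends on the length used.

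The balance of Gsta3 and Gsta4, which share almost no 50-base words and are therefore read apart, was compared within each library, where library size cancels. The log2 ratio of Gsta3 to Gsta4 counts was -2.55, -2.85, -1.90 and -2.93 in NTG. It was -0.67, -0.63 and -0.13 for the TGL mice and 0.39, 0.54 and 0.51 for the TGH mice. The 3 groups did not overlap, and NTG 2 and TGL 2 were the libraries nearest to the next group. The mean was higher by 2.08 in TGL and by 3.04 in TGH than in NTG. Each had p = 0.0571 in a two-sided exact permutation test (adjusted p = 0.0857 over 3 comparisons). The test doubled the p of the smaller tail, and this is the smallest p it can give with 35 splits. TGH exceeded TGL by 0.96, with p = 0.1 in the exact permutation test (adjusted p = 0.1), also the smallest that 3 mice against 3 can give.

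An entry without a gene symbol, ENSMUSG00000074181, followed Gsta1 most closely of 14328 other genes, with r = 0.9995 across the 10 libraries on the log2 CPM scale. It stood at 5.62, 5.08, 3.71 and 5.95 CPM in NTG, while the TGL mice had 272, 283 and 207 CPM and the TGH mice 1010, 822 and 651 CPM. Its counts were 0.890 to 1.08 times those of Gsta1 in every library. This identifier is not in the annotation used here, so its position and sequence were not analysed here. The family sums, shares and orders per kb above leave it out, although its counts were about as large as those of Gsta1. Whether it belongs to the family was not tested. It was also the gene most like Gsta2 (r = 0.9995). The genes next in likeness to Gsta1 were Adam23 (r = 0.9967), which encodes a membrane protein of the disintegrin family, and Tekt5 (r = 0.9956), a tektin of sperm flagella. Tekt5 and Map7d2 (both r = 0.9963) came next for Gsta2, while Hsf3 (r = 0.9963) and Il18bp (r = 0.9934) led for Gm10639. Libraries of 3 groups underlie all of these r, so any gene with the same order of groups has a high one.

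The genes most like Gsta3 were Rtn4 (r = 0.9934), a reticulon of the endoplasmic reticulum that went from 95.7 CPM in NTG to 237 in TGL and 480 in TGH, the unnamed entry ENSMUSG00000090537 (r = 0.9929) and Taldo1 (r = 0.9924), the transaldolase of the pentose phosphate pathway. Those most like Gsta4 were Copg2 (r = 0.9894), a coat protein of transport vesicles, Rgma (r = 0.9851) and Metap1d (r = 0.9786), a mitochondrial methionine aminopeptidase. Copg2 went from 46.0 CPM in NTG to 54.6 in TGL and 75.0 in TGH. Among the family itself Gsta1 and Gsta2 had r = 0.998, Gsta1 and Gsta3 r = 0.961, and Gsta1 and Gsta4 r = 0.824 over the 10 libraries.

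Around the chromosome 9 genes, the 10 nearest genes with an entry, 5 on each side, held 7 that could be tested, and in TGH 2 of these rose and 2 fell against NTG, beside 16% and 16.4% of all genes tested. In TGL 1 of the 7, Fbxo9, rose and 0 fell, beside 4.15% and 2.14%. Gclc, the catalytic subunit of glutamate-cysteine ligase, which lies to the left of Gsta4, had 21.6 CPM in NTG, 22.5 in TGL and 33.2 in TGH. It rose in TGH by 0.63 ± 0.14 (log2, SE, edgeR adjusted p = 0.00636) and had 0.06 ± 0.15 in TGL (adjusted p = 0.849). Fbxo9, of a ubiquitin ligase, rose by 0.86 ± 0.15 in TGH (edgeR adjusted p = 0.00101) and by 0.67 in TGL (edgeR adjusted p = 0.0223). In TGH Elovl5, a fatty acid elongase, fell by 0.86 (log2, edgeR adjusted p = 0.0107) and the kinase gene Ick fell by 0.42 (edgeR adjusted p = 0.0172). In TGH all 7 lay between -0.86 and 0.86, under the 1.38 of Gsta4 and the 7.15 to 7.32 of the near copies.

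Inside the chromosome 9 group, the unprocessed pseudogene Gm8074 (78321299 to 78322354, between Gm10639 and Gsta2) had 0 counts in the 4 NTG libraries. The TGL mice had 13, 20 and 20 counts and the TGH mice 82, 83 and 49. With 3 counts summed over NTG as the floor, it was at least 28.2-fold higher in TGL and at least 84.0-fold higher in TGH. Of the 50-base words of Gm10639, 2.71% occur in Gm8074, and of those of Gsta2, 1.54%. The counts of Gm8074 were 0.00588 to 0.0134 times those of Gsta1 in the TGL and TGH libraries. Whether reads of the near copies were counted for Gm8074 was not tested.

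**Figure D4:**
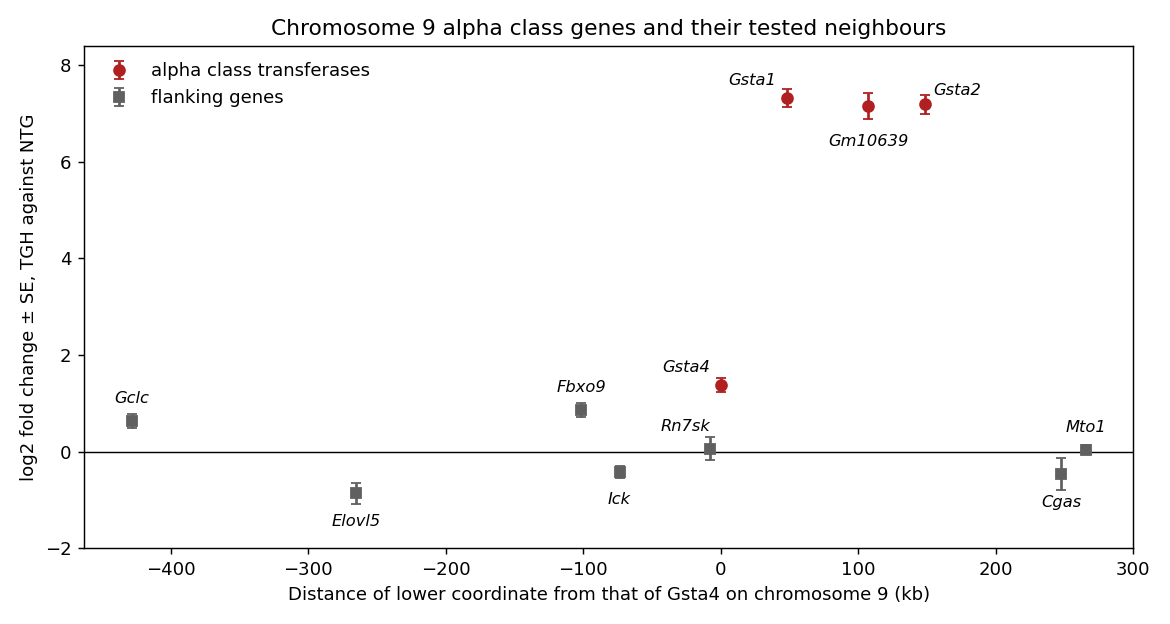
edgeR log2 fold change of TGH against NTG with its SE, plotted against the distance of each gene's lower coordinate from that of Gsta4 on chromosome 9 in kilobases, for the 4 alpha class genes there (circles) and the 7 tested flanking genes (squares); the pseudogene Gm8074 is left out. The 3 near copies stand above 7, Gsta4 at 1.38 and the flanking genes between -0.86 and 0.86.

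The enzymes around the transferases fall into lists drawn up from general knowledge, but with earlier results of these data known. Over all genes tested, 4.15% rose and 2.14% fell in TGL, and 16% rose and 16.4% fell in TGH, and each list's counts stand beside these shares. Supply of glutathione came first. Of 11 tested genes of supply, 3 rose in TGL and 5 rose and 2 fell in TGH, with a median log2 fold change of 0.06 and 0.38 beside -0.01 and -0.02 over all genes tested. The 2 of 11 that fell in TGH were near the 16.4% of all genes. Gclm, the modifier subunit of the first enzyme, had 35.5 ± 7.91 CPM in NTG (SD, n = 4) and 548 ± 36.7 CPM in the TGH mice (SD, n = 3), a log2 fold change of 3.95 by edgeR (adjusted p = 8.83e-09). Gss, glutathione synthetase, rose 3.40-fold and Gsr, glutathione reductase, 3.87-fold in TGH. Slc7a11, the cystine carrier, rose 4.15-fold there with a wide spread in TGH (48.8 ± 34.8 CPM, SD, n = 3). Without TGH 0 or without TGH 1 none of the supply genes was called lower in TGH.

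Export of the conjugates is the step after conjugation. Of 8 tested export genes 0 were called in TGL by edgeR and 2 rose in TGH, with a median log2 fold change of -0.02 in TGL. These counts were near the 4.15% and 16% of all genes called higher. Abcc1, the main pump for glutathione conjugates, had 37.0 ± 3.08 CPM in NTG (SD, n = 4) and 56.9 ± 10.3 CPM in the TGH mice (SD, n = 3), or 0.62 ± 0.13 on the log2 scale (edgeR adjusted p = 0.00347). Abcc4 had 0.34 ± 0.12 in TGH (edgeR adjusted p = 0.0415). It was no longer called when the library left out was NTG 1 (0.0982), NTG 3 (0.0928), TGL 1 (0.0556), TGH 0 (0.0883), TGH 1 (0.0776) or TGH 2 (0.0959).

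Conjugates are then trimmed to mercapturates. Of 9 tested genes of this route 1 rose and 1 fell in TGL, and 2 rose and 3 fell in TGH, beside 16% and 16.4% of all genes in TGH. Ggt5, which cleaves the glutamyl group of glutathione conjugates such as leukotriene C, had 5.48 ± 0.716 CPM in NTG (SD, n = 4). It had 13.1 ± 1.41 CPM in the TGL mice (SD, n = 3) and 37.8 ± 3.50 in the TGH mice (SD, n = 3), which was 6.90-fold over NTG (edgeR adjusted p = 2.95e-08). The dipeptidase Dpep1 fell by 0.77, Acy3 by 0.97 and the aminoacylase Acy1 by 0.86 on the log2 scale in TGH (edgeR adjusted p = 0.000561, 8.37e-05 and 0.00229). Without TGH 0 or TGH 1 the number that rose in TGH was 1, and without TGL 1 the number that fell in TGL was 0.

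Lipid aldehydes are also removed by other enzymes. Of 18 tested, 4 rose and 1 fell in TGL (4.15% and 2.14% of all genes), and 9 rose and 2 fell in TGH (16% and 16.4%), with a median log2 fold change of 0.21 and 0.33. Ptgr1, a reductase of unsaturated aldehydes and ketones, had 2.66 ± 0.663 CPM in NTG (SD, n = 4) and 23.6 ± 5.47 CPM in the TGH mice (SD, n = 3), an 8.86-fold rise by edgeR. The carbonyl reductases Cbr3 and Cbr1 rose 7.67-fold and 1.75-fold in TGH, and Akr1b8, an aldo-keto reductase, rose 4.83-fold. The 5 called in TGL in either direction became 2 without NTG 0, NTG 1 or TGL 0, 3 without TGH 1 and 1 without TGL 1, and the number that fell in TGH was 1 without NTG 0, NTG 1, NTG 2, TGL 0, TGL 1 or any 1 TGH library.

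Enzymes that reduce lipid hydroperoxides, an activity they share with alpha class transferases, were the last list. Of 6 tested, 4 rose in TGL (4.15% of all genes) and 5 in TGH (16%), and 0 fell, with a median log2 fold change of 0.42 and 0.72. Prdx6 rose 6.42-fold in TGH with a wide spread (1080 ± 649 CPM, SD, n = 3, against 169 ± 11.6 CPM in NTG, n = 4). Gpx1 rose 1.65-fold, Gpx8 1.66-fold and Gpx4, the peroxidase of membrane lipids, 1.48-fold in TGH (edgeR adjusted p = 0.000119, 0.000291 and 0.000256). The 4 that rose in TGL became 1 without NTG 0 or TGL 0 and 2 without NTG 1 or TGL 1.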

How the data were processed

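Left ventricle RNA was sequenced from TruSeq libraries, and per the submitters' processing notes reads were handled with bcl2fastq 1.8.4, Trim Galore 0.4.0, Novoalign, SAMtools and DESeq2 1.18.1 on mm10 (GRCm38). The counter, annotation, strand setting and treatment of reads matching several genes: not given in the sources used here. Per the file headers the deposited table holds a whole-number count per gene and library, and, by the authors for TG against NTG, a signal (baseMean), a log2 fold change with its SE, a score (stat), a p-value and an adjusted p-value. Genes without a symbol (1324) held 0.777% of counts.

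Counts were tested with edgeR 4.0.16 (TMM, filterByExpr by group, quasi-likelihood F test, Benjamini-Hochberg over all genes tested, threshold 0.05), with 3 groups in 1 fit for each line and 2 groups for TG against NTG, and the code was tested on simulated data. SE was computed as log2 fold change divided by the root of F. CPM used TMM-adjusted library sizes, and 3 counts stood at 0.260 to 0.436 CPM. Libraries are from separate mice as far as the labels tell, and p-values rest on the spread between them. In TG against NTG that spread includes the difference between the 2 lines. The log2 ratio added 0.5 to each count and was tested with scipy 1.17.1. Likeness was Pearson's r of log2 CPM (prior count 2) among genes averaging 1 CPM or more. Transcript words, lengths and coding sequences came from GENCODE M21, and coding sequences were aligned with Biopython 1.88. The rule named all 5 genes, genes with over 10% of their words, the 3 genes most like each, called neighbours, and up to 4 genes of each list by smallest p in TGH. Members and lists were chosen with earlier results of these data known. Alternatives were DESeq2 1.42.0, RLE size factors, no filter, a filter of 1 CPM in 4 libraries, a replicate block, other groups in the fit, each library left out, NTG 2 with TGL 2 left out, no pseudocount and the near copies as 1 feature.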

Additional observations from a re-analysis of the deposited data

How the results depend on the processing

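Of 360 values of the log2 fold change of a gene under an alternative, 350 kept their direction and their side of the threshold, and the other 10 were all of Gsta4: 8 lost the call in TG against NTG and 2 gained it in TGL against NTG. The 360 are not separate checks. They enter the value of the joined feature once for each of the 3 near copies, and some leave out a library outside the comparison. Over 18 alternatives Gsta1 in TGH against NTG ran from 7.20 to 7.42, Gm10639 from 6.90 to 7.66, Gsta3 from 4.25 to 4.56 and Gsta4 from 1.3 to 1.46, and Gsta4 in TGL against NTG from 0.30 to 0.58. Adding the near copies into 1 feature gave 3 called features in TG against NTG, 2 in TGL against NTG, 3 in TGH against NTG and 3 in TGH against TGL, fewer because 3 features are then left. The replicate number as a block left 4 genes called in TG against NTG (Gsta4 at 0.93, edgeR adjusted p = 0.0958), 4 in TGL against NTG, 5 in TGH against NTG and 5 in TGH against TGL. Samples with the same number had deviations correlated at -0.05 to 0.33 over genes, so the numbers were not taken to pair them. With 1 library left out the genes called numbered 4 to 5 in TG against NTG, 4 to 5 in TGL against NTG and 5 in each of the other comparisons. The Gsta3 to Gsta4 ratio kept its direction under all 26 alternatives, but leaving out libraries could not reverse it because the groups did not overlap. None of its designs could pass the threshold with the permutation test used, which doubled the p of the smaller tail. NTG levels of Gm10639 rest on 5 to 22 counts a library, which limits its fold change.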
